A study of Mus musculus with 115 samples.

Results

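Commissural granule cells, the dentate granule cells with an axon that reaches the opposite hippocampus, were compared after saline and after kainic acid (KA), an agonist of glutamate receptors that evokes seizures. They were recognised by EGFP from a retrograde AAV injected into the right ventral hippocampus of Rbp4-Cre mice. Saline or KA was injected on the left, together with a virus that expresses mCherry only where Cre is active, and the cytosol of single cells on that side was drawn into a patch pipette 2 weeks later. The members are the cells labelled EGFP+ in the count table that the authors kept after quality control: 27 KA cells and 5 saline cells, which is 32 of its 95 cells and of 115 cells in all. The quality control label was not used to choose them. All 4 groups of the study carry both viruses, so the saline cells are a control for KA and not for surgery or infection, and mCherry was not used to choose cells. KA dose, age and sex are not given in the sources used here.

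Dentate granule cells are the glutamatergic neurons through which cortical input enters the hippocampus, and their axons, the mossy fibres, normally end on the same side. After seizures these cells are known to make more of several neuropeptides, among them enkephalin and neuropeptide Y, and of the growth factor BDNF. Peptides are cut from precursors and stored with granins in dense-core vesicles, so precursor, processing and granin genes are read together. Prolonged KA injury is also known to disperse granule cells and to lower calbindin in them.

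The study states 3 mice for the saline EGFP+ cells and 9 for the KA EGFP+ cells, but no label ties a cell to its mouse. Each group is therefore a single sample of cells. No test between groups was possible, no p-value is given, and every difference below is a described size with its spread (SD) over cells. Levels are log2(CPM + 1), where CPM is the gene's counts per 1000000 counts of the cell. A difference is the KA mean minus the saline mean on that scale, which understates the fold of low genes. A gene was measured where at least 40% of the cells of either group held a count after every cell was thinned to 1000000 counts. The 5 saline cells carry the title numbers M222, M230, M247, M252 and M258. Of the KA cells, 24 are numbered 1 to 48 and only 3 (M234, M235 and M266) are numbered above 200 as the saline cells are, so title series and treatment cannot be told apart for the other 24. Cells M222 and M230 carry a failed label although they are in the kept table, and a shift of labels by 1 cell would alter the groups.

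The saline libraries stood apart from the KA libraries as a whole. They held 1277978 to 6094406 counts (median 2697650) and the KA libraries 1657692 to 13993379 (median 6140692). The median number of genes with a count was 4325 in saline cells and 6231 in KA cells, and a ribosomal RNA gene took a median of 4.43% and 0.601% of counts. The 22 microglia markers took 3.21% of counts in saline cell M222, 3.36% in M230, 0.676% in M247, 0.00145% in M252 and 5.44% in M258. In KA cells this share had a median of 0.0283% and reached 2.75%. Of the 27 KA cells 17 were under 0.1%, and of the 5 saline cells 1. Cell M252, the saline cell with hardly any microglial RNA, gave 13.4% of its counts to ribosomal RNA and 0.0318% to the granule cell markers, against a KA range of 0.103% to 0.746%. The part of these differences in the results was not tested. A pair of narrower comparisons is therefore given beside some of the results. The first sets the 17 KA cells under 0.1% microglia markers against cell M252 alone. The second sets the 6 KA cells at 0.5% or more against the other 4 saline cells.

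**Figure D1:**
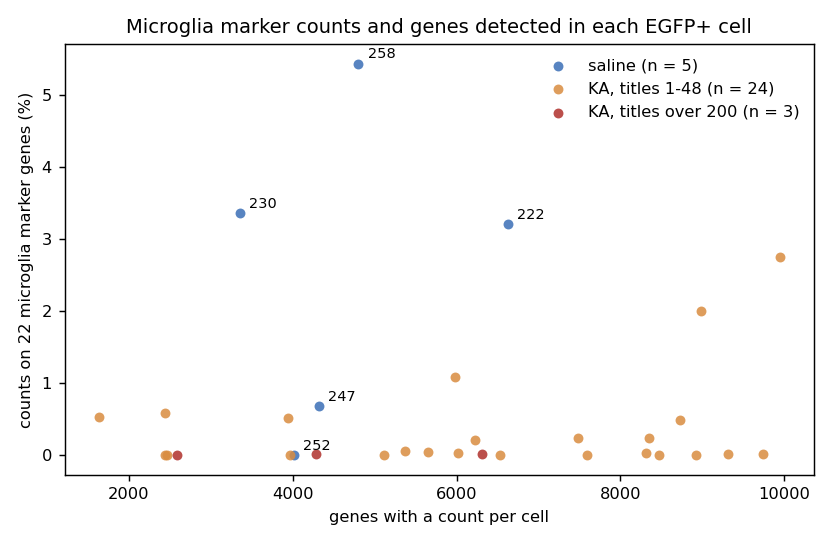
Share of counts on the 22 microglia markers (%, y axis) against the number of genes with a count (x axis) in each EGFP+ cell, with the saline cells numbered by title. The saline cells M222, M230 and M258 lie above the highest KA cell, which is at 2.75%, and 17 of the 27 KA cells lie under 0.1%.

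Granule cell markers were present in both groups. Of 18 markers, the KA cells had a count of 3 to 15 (median 11) and the saline cells of 7 to 17 (median 9). They took a median of 0.268% of counts in KA cells and 0.282% in saline cells. Rbp4, the gene whose promoter drives Cre in this line, was at 0 in all 5 saline cells and in 22 of 27 KA cells. The spread of the markers within the saline cells is given with the genes below.

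Across 8164 measured genes, 3031 (37.1%) were 2 or more higher after KA and 446 (5.46%) were 2 or more lower. Without cell M252 the lower genes numbered 743. The median gene was 1.41 higher after KA, and 0.16 higher in the 3 KA cells numbered above 200. After the median was taken off every gene, 921 genes (11.3%) were 2 or more higher and 1391 (17%) lower, so the balance of the directions depends on that shift and list medians are given relative to it. No gene had every saline cell below every KA cell, and 4 genes (0.049%) had every saline cell above every KA cell. At 0 in all 5 saline cells were 679 genes (8.32%). Over the genes measured in each narrower comparison, the median gene was 2.88 higher against cell M252 alone. Among cells with at least 0.5% microglia markers it was 0.55 higher. Differences of single genes below include this shift, so a positive value against cell M252 can still lie under the median gene.

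Neuropeptide precursors and secreted factors stood highest of the gene lists. Of 28 members, 14 were measured. Of these, 10 were 2 or more higher and none 2 or more lower, beside 37.1% and 5.46% of all measured genes. After thinning, Penk and Cartpt were counted in 1 of 5 saline cells and Npy and Vgf in 0. These members were thus measured only through the KA cells, which nearly fixes their direction. The list was also written with earlier results of these data known. The median member was 4.30 above the median gene with all KA cells, 4.30 with the 3 KA cells numbered above 200, and 3.77 among cells with at least 0.5% microglia markers. It was 2.62 against cell M252 alone, and 1.83 in the EGFP- cells described at the end. In summed counts, with the 3 members at 0 in every saline cell set to a floor of 3 counts over the group, the median member had a log2 ratio of 5.32.

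Penk (chr4:4133531-4138819, minus strand, GRCm38), the precursor of enkephalins, was at 0 in saline cells M222, M230, M247 and M258 and at 3.95 in M252. In KA cells it ran from 0.20 over a median of 10.70 to 15.88. In 22 of 27 KA cells it lay above every saline cell, while 5 KA cells were under 3, so the KA cells fell into many at a very high level and a few near the saline level. The means were 9.17 ± 5.02 (SD, n = 27) and 0.79 ± 1.77 (SD, n = 5), a difference of 8.38. In the KA cells numbered M234, M235 and M266 Penk was 11.66, 5.22 and 0.68, and among cells with at least 0.5% microglia markers the difference was 4.41. Its exons overlap those of A830012C17Rik, and the library does not keep strand, so reads of the pair cannot be told apart. The same holds for Bdnf, Prox1, Dclk1, Crtac1, Dtna, Selenop, Rps6ka1, Il1a, Golm1 and Irf9 below, each of which shares exons with another gene.

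Cartpt (chr13:99898489-99901091, minus strand), the precursor of the CART peptides, was at 0 in 4 saline cells and at 1.74 in cell M258. Its KA values ran from 0 over 8.88 to 13.49, with 7 cells at 0 and 11 at 10 or more. The difference was 6.53, and 3.95 among cells with at least 0.5% microglia markers. Npy (chr6:49822710-49829507, plus strand), neuropeptide Y, was at 0 in all 5 saline cells and ran from 0 over 7.10 to 12.42 in KA cells, with 6 of 27 at 0. Its difference was 5.68. In summed counts the KA cells gave 812 CPM, 4325-fold a floor of 0.188 CPM that was set as 3 counts over the saline group. That ratio describes the reads of these 5 saline cells and is no lower limit for other cells. After thinning it was found in 19 of 27 KA cells (Clopper-Pearson 95% interval 49.8% to 86.2%) and in 0 of 5 saline cells (up to 52.2%), an interval that treats cells as independent. Counts of the 3 peptide genes were often found in the same cells, where any count after thinning sufficed. Of 27 KA cells 17 had counts of Penk, Cartpt and Npy together, 2 had counts of 2 of them, 6 of 1 and 2 of none. Of the saline cells, 3 had none and 2 had 1. Taken singly, Penk was counted in 24 KA cells, Cartpt in 18 and Npy in 19. Such counts can be low: 5 KA cells were under 3 in log2(CPM + 1) for Penk, 10 for Cartpt and 10 for Npy.

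Dense-core vesicle genes were more even from cell to cell. Vgf (chr5:137026392-137033351, plus strand), a secreted granin-like protein, was at 0 in every saline cell, and 25 of 27 KA cells lay above, with a median of 7.36 and a highest value of 10.18. Its difference was 6.73, and 4.13 among cells with at least 0.5% microglia markers. In summed counts Vgf was 1402-fold the same floor over these 5 cells. This is no lower limit either, as saline cell M220, absent from the kept table, held 11 Vgf counts (6.96). Chga, chromogranin A, read 0, 0, 5.14, 1.96 and 0 in saline cells M222, M230, M247, M252 and M258, and had a KA median of 9.16 (0 to 10.88). Its difference was 6.18, with 22 KA cells above every saline cell.

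Bdnf (chr2:109674700-109727007, plus strand), a neurotrophin, was the steadiest of these genes after KA. The saline cells read 0.99, 0, 8.29, 2.21 and 0 in the same order, and the KA cells 6.76 to 11.54 with a median of 9.56. Saline cell M247 lay inside the KA range and the other 4 saline cells lay below every KA cell. The means were 9.44 ± 1.09 (SD, n = 27) and 2.30 ± 3.47 (SD, n = 5), a difference of 7.14 that was 7.18 with the KA cells numbered above 200 and 6.05 among cells with at least 0.5% microglia markers. The log2 ratio of summed CPM + 1 was 3.34 (910 CPM after KA and 88.9 CPM after saline), smaller than the difference over cells. Cck and Scg3, a peptide precursor and a granin, had differences of -0.85 and -0.75. The sign turned for Cck without saline cell M230 (0.37) and for Scg3 without M247 (0.38) or M258 (0.37). It also turned for both against cell M252 alone (2.33 and 4.16, beside 2.88 for the median gene). Pdyn, the dynorphin precursor, and Sst, somatostatin, did not reach the rule for measured genes, with Pdyn counted after thinning in 10 KA cells and 1 saline cell.

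**Figure D2:**
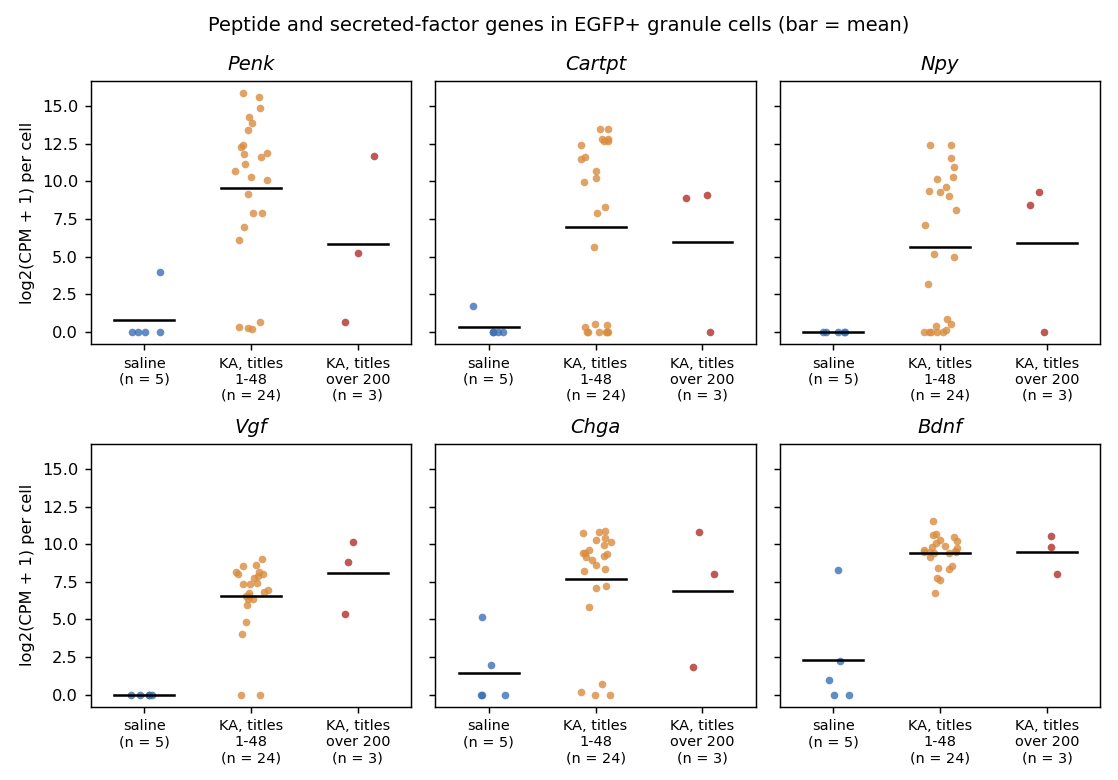
Level per cell (log2(CPM + 1), y axis) of 6 peptide and secreted-factor genes in the 5 saline cells, the 24 KA cells numbered 1 to 48 and the 3 KA cells numbered above 200, with a bar at each mean. Penk, Cartpt and Npy split the KA cells into high cells and cells near 0, whereas all 27 KA cells lie at 6.76 or more for Bdnf.

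Genes for peptide processing and sorting were higher too. Of 13 measured, 10 were 2 or more higher and none 2 or more lower, beside 37.1% and 5.46% of all measured genes. Their median was 1.404 above the median gene (2.47 with the KA cells numbered above 200). Cpe, carboxypeptidase E, which trims peptide precursors, had a difference of 5.92 and was found after thinning in every KA cell and in 4 of 5 saline cells. Sorcs3, a sorting receptor, had a difference of 5.37 and Ptprn, a dense-core vesicle protein, of 5.20. Among cells with at least 0.5% microglia markers these fell to 1.18 for Sorcs3 and 3.29 for Ptprn, and that of Cpe was 5.20.

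Several of the genes above are textbook targets of CREB-family factors, which bind the sequence TGACGTCA and its shorter forms TGACG and CGTCA, so the 250 bases before the RefSeq starts (GRCm38.p6) were searched on both strands. Of 10 genes looked up, 6 were matched; Penk, Vgf, Nell2 and Camk2n1 were not. The full site was present in 508 of 32851 promoters (1.55%) and a short form in 17.8%. The windows of 30 bases below are shown 5′ to 3′ on the gene's strand, with the match in capitals. They were picked because they hold a match, so they show no feature common to the promoters of these genes.
Cartpt: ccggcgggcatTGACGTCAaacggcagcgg
Chga: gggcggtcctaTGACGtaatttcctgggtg
Bdnf: catatgacagctcaCGTCAaggcagcgtgg
Rgs4: ttgcatccctgatgCGTCAgttgtttcttc
The windows lie at chr13:99900777-99900806 (minus strand), chr12:102554886-102554915 (plus), chr2:109692387-109692416 (plus) and chr1:169747768-169747797 (minus). Their matches begin 112, 44, 35 and 141 bases before the start. Only the Cartpt window holds the full site; Rgs4 holds another short form at 236 bases, and 1 of 7 Bdnf starts holds a match. The windows before Npy and C1ql2 hold none of these letters. A match is a description of the sequence and not a bound site.

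The named genes were the 14 most positive of 2003 genes that kept a difference of 1 or more without any 1 saline cell, with the 3 KA cells numbered above 200 alone, and in summed counts. Rgs4 (chr1:169741477-169747642, minus strand), a brake on G-protein signalling, read 1.31, 1.85, 0, 1.29 and 0 in saline cells M222, M230, M247, M252 and M258. In KA cells it ran from 0.86 over 10.15 to 12.09. All but 1 KA cell lay above every saline cell, and the difference was 8.49. Nell2, a secreted protein of neurons, was at 1.08 in cell M230 and at 0 in the others, had a KA median of 8.43 (0 to 10.62) and differed by 7.59. Dclk1, a microtubule-associated kinase, differed by 6.95 with 26 of 27 KA cells above every saline cell. Crtac1 (6.94), Spock3 (6.85), a matrix proteoglycan, and AI593442 (6.74) followed. Dtna, a dystrobrevin, was at 0 in every saline cell and differed by 6.63, and Pgrmc1, a membrane haem-binding protein, by 6.52. Ptpn5, the phosphatase STEP of striatal and hippocampal neurons, differed by 6.46 and Arxes1 by 6.45, the latter with 1 saline cell (M222) at 6.14. With cell M252 as the only saline cell, Rgs4 differed by 8.96, Nell2 by 8.32 and Dclk1 by 9.07, beside 2.88 for the median gene. Among cells with at least 0.5% microglia markers these 3 genes differed less, by 6.10, 5.47 and 6.78, and Arxes1 by 3.62. Of the genes named whatever their values, Cpne7, a calcium-dependent membrane-binding protein, differed by 6.01, and Acan, aggrecan of the perineuronal matrix, was at 0 in all saline cells and differed by 3.44.

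The granule cell genes went in both directions. Of 17 measured markers 6 were 2 or more higher (35.3%) and 2 lower (11.8%), beside 37.1% and 5.46% of all measured genes. Their median was 0.18 under the median gene (0.44 above it against cell M252 alone). C1ql2 (chr1:120340582-120343174, plus strand), a synaptic organiser that mossy fibres secrete, read 7.45, 10.72, 8.97, 1.29 and 8.74 in saline cells M222, M230, M247, M252 and M258. The KA cells had a median of 0 and reached 10.28, and 15 of 27 were at 0, below every saline cell. The other 12 KA cells lay within the range of the saline cells, and the difference was -3.90. Camk2n1 (chr4:138454314-138460123, plus strand), an inhibitor of CaMKII, was also at 0 in many KA cells: the saline cells read 8.52, 7.57, 6.01, 1.67 and 9.40, and 17 of 27 KA cells lay below them all. Its difference was -4.002. Against cell M252 alone, the saline cell lowest in both, the differences were positive, 2.09 for C1ql2 and 1.37 for Camk2n1. Both lay under the 2.88 by which the median gene was higher there. Among cells with at least 0.5% microglia markers the differences were -5.44 and -7.01.

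Calb1, calbindin, read 9.64, 9.44, 9.38, 7.72 and 0 in the same saline cells and had a KA median of 7.75 with 7 cells at 0. The groups overlapped over nearly their whole range, and the difference was -1.003, or -2.81 without cell M258. Prox1, the transcription factor that defines granule cells, read 8.85, 0, 0, 1.67 and 0 and had a KA median of 6.67, a difference of 3.85 over cells but of 0.14 in the log2 ratio of summed CPM + 1, with only cell M222 high among the saline cells. Trpc6, a cation channel, differed by 5.64, and Dock10, an exchange factor for small GTPases, by -2.35 (-1.86 without cell M258). Against cell M252 alone Dock10 differed by 2.32, beside 2.88 for the median gene.

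Activity-induced genes were mixed. Of 27 measured immediate early genes 10 were 2 or more higher and 2 lower, beside 37.1% and 5.46% of all measured genes. The share higher was thus about that of all measured genes. Their median was 0.29 above the median gene (2.03 with the 3 KA cells numbered above 200, and 0.35 under it against cell M252 alone). Arc, a synaptic immediate early gene, was at 0 in saline cells M222, M230, M247 and M258 and at 3.38 in M252, and had a KA median of 7.15 (0 to 11.85). In KA cells 16 of 27 lay above every saline cell and 11 were under 3. The difference was 4.55, which was 2.40 against cell M252 alone and 2.53 among cells with at least 0.5% microglia markers. Fos ran the other way in the mean, with saline values of 7.38, 9.75, 6.11, 7.67 and 10.17 and a KA median of 8.85 (0 to 12.94). With 6 KA cells above and 7 below all saline cells, its difference of -0.91 lay within the spread. Dusp6, a phosphatase of the ERK pathway, differed by 6.32 and Ier5 by 4.39. Among cells with at least 0.5% microglia markers these were 4.94 and 1.16. Maff differed by -3.09 (-1.99 without cell M230) and Atf3, a stress-induced factor, by -2.07 (-1.48 without cell M258 and -3.54 without M252). Against cell M252 alone both turned positive, Maff to 0.23 and Atf3 to 3.82, beside 2.88 for the median gene. Egr1 (1.71) and Nr4a1 (3.28) each had saline cells inside the KA range, and the Egr1 difference was -4.60 against cell M252 alone. Among cells with at least 0.5% microglia markers Egr1 differed by 3.76 and Nr4a1 by 0.93.

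**Figure D3:**
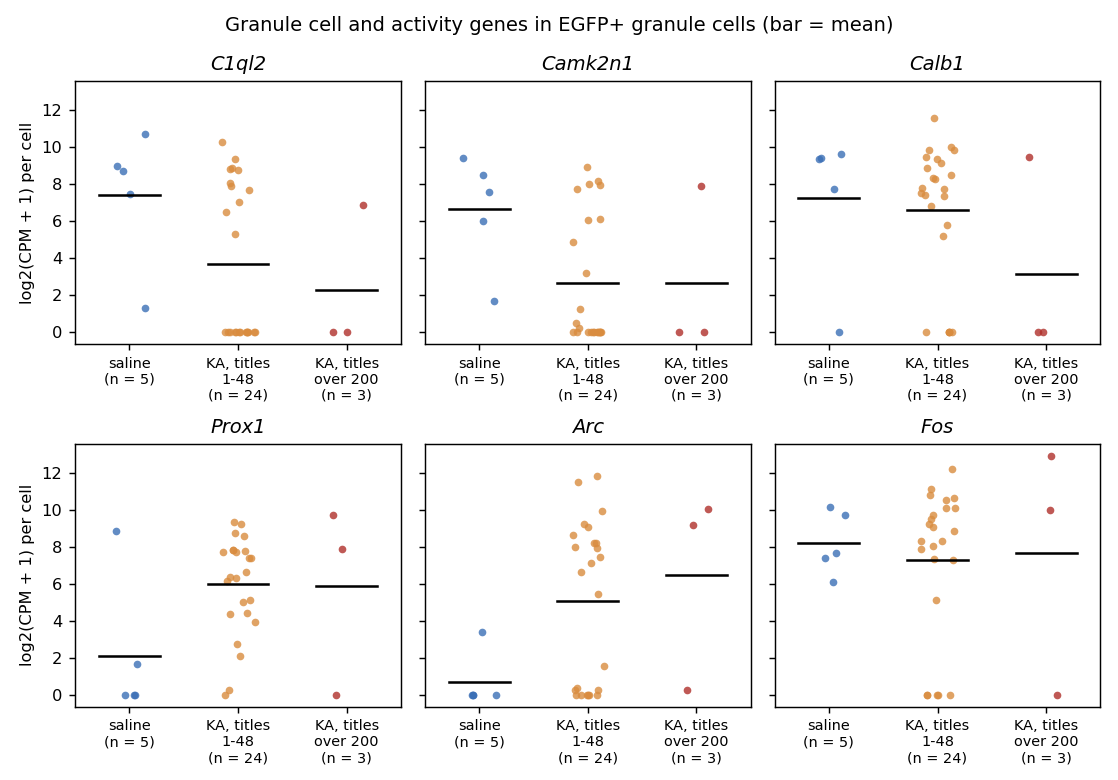
Level per cell (log2(CPM + 1), y axis) of 4 granule cell or mossy fibre genes and of Arc and Fos, in the groups of the plot of peptide genes, with a bar at each mean. C1ql2 and Camk2n1 are at 0 in 15 and 14 of the 27 KA cells and in none of the saline cells; saline cell M252 is the lowest saline value of both.

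Axon guidance genes as a list did not stand apart from all genes. Of 34 measured, 14 were 2 or more higher and none lower, with a median 0.04 under the median gene. In the Robo and Slit family, which steers axons at the midline, 3 of 5 measured genes were 2 or more higher, beside 37.1% of all measured genes. Robo2, a Slit receptor, was at 0 in all saline cells and at a median of 5.02 in KA cells (17 of 27 above 0; difference 3.78). Robo3, a divergent receptor of commissural axons, read 0.41, 1.31, 0, 0.79 and 5.27 in saline cells M222, M230, M247, M252 and M258, and 5.07 at the KA median, a difference of 2.59 with 13 KA cells above every saline cell. Robo1, the other Slit receptor of the family measured, differed by -0.52 and was at 0 at the KA median. The ligands split, with Slit3 at 3.14 and Slit2 at -1.29 (0.09 without cell M247). Against cell M252 alone Slit2 differed by 0.81, beside 2.88 for the median gene. Epha7 and Epha4, receptors for ephrins, were 6.39 and 4.62 higher, and Nrp1, a semaphorin receptor, 1.11. Gap43, a growth cone protein, was not a measured gene and was counted after thinning in 7 KA cells and 1 saline cell.

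Counts in the cell adhesion, synaptic and channel lists are read beside the 37.1% of all measured genes that were 2 or more higher. Of 25 measured cadherins and protocadherins 17 were 2 or more higher and 1 lower, a median 1.82 above the median gene. Pcdhga1, Pcdhgc3 and Pcdhgc5 (5.01, 5.01 and 4.86) share exons of the gamma protocadherin cluster and nearly the same counts, so they amount to 1 observation, while Pcdh11x, a separate gene, differed by 4.30 and Pcdh19 by -2.52 (-0.96 without cell M247). Of 15 GABA receptor genes 9 were 2 or more higher and none lower (median 1.07 above), with the receptor subunits Gabra5 (5.63) and Gabra2 (5.14) among the highest. Gad1, a GABA-synthesising enzyme that granule cells are known to make after seizures, read 0, 3.13, 8.89, 5.95 and 0 in saline cells M222, M230, M247, M252 and M258 and 8.90 at the KA median, a difference of 4.57; it is also an interneuron marker, and Pvalb, the other interneuron marker measured, differed by -2.10 (-0.85 without cell M247).

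Of 28 synaptic vesicle genes 15 were 2 or more higher and 1 lower. Cplx1 and Cplx2, paralogous complexins that clamp vesicle fusion, went in opposite directions: Cplx1 was 6.13 higher, with saline values of 6.78, 0, 1.47, 0 and 0.83 and a KA median of 8.81. Cplx2 read 8.90, 7.90, 8.24, 8.33 and 8.93 in the saline cells and 6.06 at the KA median (0 to 8.12), with 24 of 27 KA cells below every saline cell and a difference of -3.50. It differed by -3.22 against cell M252 alone, by -3.14 among cells with at least 0.5% microglia markers and by -6.15 in the KA cells numbered above 200. Potassium and HCN channels (15 of 32 higher, 46.9%, and 1 lower) were led by Kcnip3 (6.33), a channel partner, and by Kcnk1 (6.11), a leak channel at 0 in all saline cells. Kcnmb4, a subunit of BK channels, differed by -2.53 (-1.31 without cell M230). Glutamate receptors had 10 of 23 higher (43.5%) and none lower, with Grm7 (5.06) and Gria4 (5.03) among the highest and Grin2b at -1.03. Calcium sensors and CaM kinases lay 1.13 under the median gene, with 7 of 34 higher and 5 lower; Rcan1, an inhibitor of calcineurin, differed by -3.20 (-1.98 without cell M230).

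Metabolic and protein synthesis genes differed by list. Their counts, and those of the cell type markers below, are read beside the 37.1% of all measured genes higher and 5.46% lower. Of 20 glycolysis genes 13 were 2 or more higher and none lower, a median 1.41 above the median gene that was 0.49 with the KA cells numbered above 200. Gapdh, a core enzyme of the pathway, was 5.16 higher with all KA cells and 0.09 higher with those 3, so its value moved with the title series. Of 81 cytosolic ribosomal protein genes 19 were 2 or more higher and 3 lower, and their median lay 0.86 under the median gene (2.44 under it with those 3 cells, but 1.399 above it against cell M252 alone). Of 83 nuclear respiratory chain genes 24 were higher and 2 lower, with a median 0.17 under the median gene that was 2.18 above it against cell M252 alone. Of 12 mitochondrially encoded mRNAs 2 were higher and 1 lower, with a median 0.51 under it that was 0.61 above it among cells with at least 0.5% microglia markers. The direction of these 3 lists thus depended on which cells were used. Of 15 astrocyte markers 7 were measured, of which 3 were 2 or more higher and 1 lower, with a median 0.14 above the median gene. Slc1a2, a glutamate transporter, was 5.31 higher and Gfap 4.02 higher, while the lowest member differed by -2.46. The summed astrocyte share was 0.000359% to 3.14% in KA cells and 0.000706% to 0.213% in saline cells; its part in the higher genes was not tested. Of 3 oligodendrocyte markers measured 1 was 2 or more lower, and of 2 endothelial and mural markers 1 was higher. Mossy cell markers had 4 of 9 measured, with none higher and 1 lower, and CA3 and CA1 pyramidal markers 9 of 13, with 6 higher and none lower.

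The other lists lay closer to the median gene, and their counts are read beside the same 37.1% of all measured genes higher and 5.46% lower. Synaptic adhesion genes had 27 of 47 members 2 or more higher and 1 lower, with a median 0.71 above it, cholesterol and lipid transport genes 8 of 15 higher and 1 lower (0.91 above), and extracellular matrix genes 9 of 19 higher and 1 lower (0.34 above). Growth-associated genes had 14 of 35 higher and 3 lower (0.37 above) and heat shock and folding genes 8 of 22 higher and 3 lower (0.21 above). Sodium and calcium channels had 8 of 23 higher (34.8%) and none lower (0.15 above), and G-protein and Ras regulators 10 of 24 higher and 2 lower (0.12 under).

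**Figure D4:**
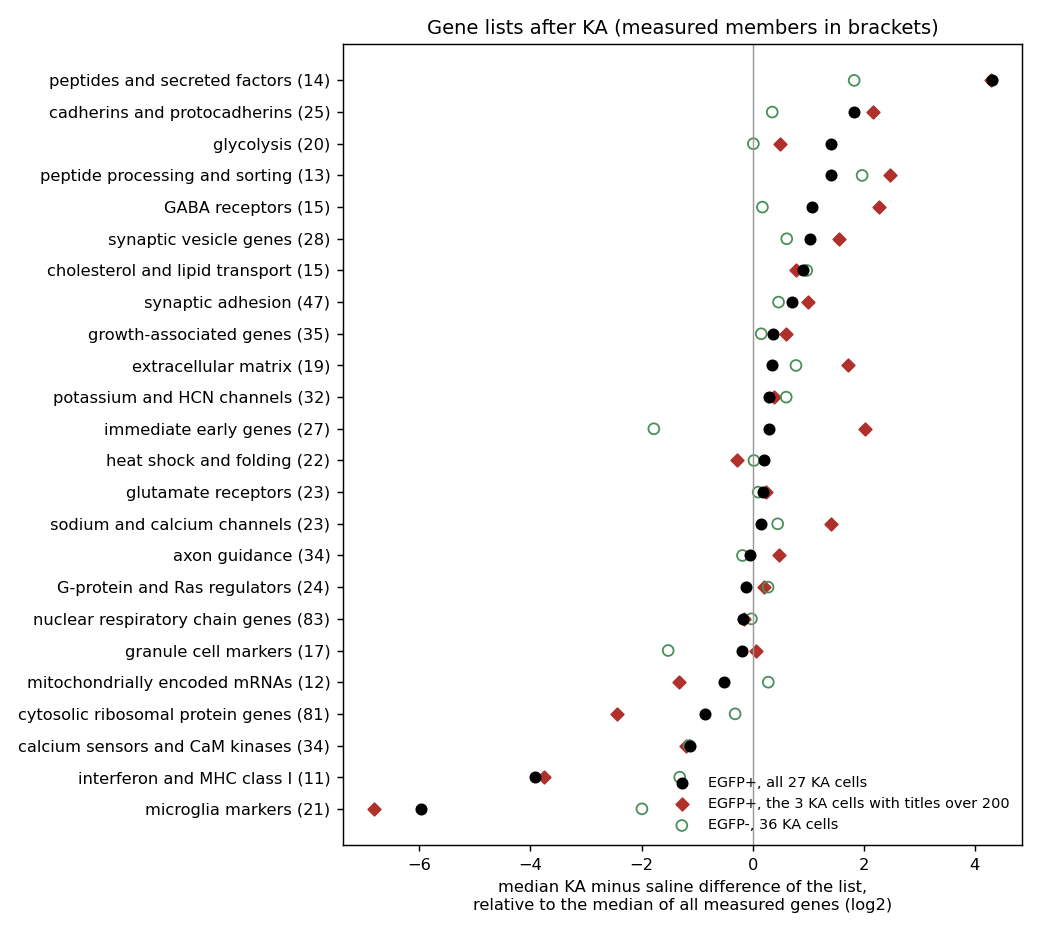
Median KA minus saline difference of each gene list with 10 or more measured members, relative to the median of all measured genes (log2, x axis). Filled circles are the 27 KA EGFP+ cells, diamonds the 3 numbered above 200 and open circles the EGFP- cells; peptides lie highest at 4.30 and microglia markers lowest at -5.97 in EGFP+ cells.

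The genes lower after KA were led by genes known from myeloid cells. Of 21 measured microglia markers 20 were 2 or more lower, beside 5.46% of all measured genes, and their median lay 5.97 under the median gene. C1qb, a complement subunit of microglia, read 12.63, 12.65, 10.24, 2.21 and 13.49 in saline cells M222, M230, M247, M252 and M258, with a KA median of 0.19 and a highest KA value of 12.43. The named genes, from which marker lists were left out, were largely known from microglia or other myeloid cells: Selenop (-6.65), the cathepsin Ctsc (-6.44), the chemokines Ccl3 (-6.42), Ccl4 (-6.24) and Ccl2 (-5.69), Rps6ka1 (-6.42), Sparc (-6.39), Rhog (-5.92), Entpd1 (-5.62), the cytokine Il1a (-5.46) and Cd83 (-5.29). Against cell M252 alone these 11 genes differed by -1.74 (Ccl3) to 0.67 (Ccl2). Ccl4 showed the pattern plainly: 13.59, 13.69, 10.31 and 13.93 in the 4 saline cells with microglial RNA, 2.21 in cell M252, and 0 to 13.32 in KA cells. Of 11 measured interferon and MHC class I genes 7 were 2 or more lower; B2m, the light chain of MHC class I, read 10.19, 11.55, 9.29, 2.21 and 11.42 in the saline cells and 4.23 at the KA median.

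A smaller set was lower in both narrower comparisons, which are themselves parts of the main one. Among cells with at least 0.5% microglia markers, 1896 of all 6978 measured genes were 2 or more higher and 970 lower. Against cell M252 alone the median gene was itself 2.88 higher, so a higher call was kept there more readily than a lower one. Of the 446 genes that were 2 or more lower, 65 were also lower by that size against cell M252, 347 among cells with at least 0.5% microglia markers and 39 in both; for the 3031 higher genes these numbers were 2757, 1611 and 1419. Mrpl52, a protein of the mitochondrial ribosome, was among the 39: the saline cells read 7.10, 7.62, 6.85, 7.15 and 8.13, a spread of 0.50 (SD, n = 5), and no KA cell exceeded 5.57. Every saline cell lay above every KA cell, with a difference of -5.86. Rps27rt, a retrogene copy of the ribosomal gene Rps27, read 7.16, 7.00, 7.26, 7.42 and 6.88 and also did not overlap with the KA cells (0 to 6.47; difference -5.77, but -1.58 with the 3 KA cells numbered above 200). Its reads may be split with near-identical copies. The other non-overlapping genes, Ftl1-ps1 and Gm10263, are pseudogene or predicted names and share this limit. Golm1, a Golgi membrane protein, read 9.91, 10.24, 0, 7.12 and 10.89 and differed by -5.81, with a KA median of 0 and a KA cell at 10.87. Irf9, an interferon signalling factor, differed by -4.23 and by -5.80 against cell M252. Its groups overlapped, with saline cells from 0 to 10.23 and KA cells from 0 to 11.31.

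The EGFP- granule cells give a second comparison that shares no cell with the first, 36 KA against 27 saline cells. It shares the limit of the title series: 21 of its KA cells are numbered 1 to 48, and all 27 saline cells above 200. Title series and treatment thus cannot be told apart for those 21, and shared differences are no independent replication. In the EGFP- cells 677 of 6395 measured genes (10.6%) were 2 or more higher and 199 (3.11%) lower. Over the 6098 genes measured in both classes, the differences correlated across genes with r = 0.431 and rho = 0.384, and with r = 0.215 and rho = 0.192 when only cells numbered above 200 were used; genes are not independent replicates. Of these genes 2630 (43.1%) were 2 or more higher in EGFP+ cells and 646 (10.6%) in EGFP- cells. Higher in both were 460 genes, 17.5% of those higher in EGFP+ cells and 71.2% of those higher in EGFP- cells. With only cells numbered above 200 these were 75 genes, 4.26% and 55.1%. Lower in both were 50 genes, 23.8% and 27.9% of the respective sets.

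Of the peptide genes, Penk was 7.87 higher in EGFP- cells, Cartpt 7.68, Npy 5.81 and Chga 5.27, and Sorcs3 and Cpne7 were 6.03 and 7.38 higher. For these the EGFP+ minus EGFP- difference of the differences lay between -1.37 (Cpne7) and 0.91 (Chga). With only cells numbered above 200 the EGFP+ and EGFP- differences were 5.06 and 2.53 for Penk, 9.53 and 4.48 for Sorcs3, and 5.45 and 3.04 for Chga. Those of Cartpt (5.64 and 5.57), Npy (5.91 and 4.99) and Cpne7 (8.88 and 8.43) lay closer. The differences of Vgf were further apart, at 6.73 in EGFP+ and 2.61 in EGFP- cells. Its means were 6.73 and 7.03 after KA but 0 and 4.42 after saline, so the classes lay apart in the saline cells. The peptide list stood 4.30 and 1.83 above the median gene. C1ql2 and Camk2n1 were also lower in EGFP- cells, by -5.96 and -4.86, and Calb1 by -2.65.

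Other genes had a difference in EGFP+ cells that was far smaller or opposite in EGFP- cells. For Rgs4, Bdnf and Arc the classes lay further apart after saline than after KA. Rgs4 averaged 9.38 after KA in EGFP+ cells and 9.15 in EGFP- cells, but 0.89 and 6.82 after saline, so the EGFP- difference was 2.32. Bdnf averaged 9.44 and 8.75 after KA and 2.30 and 6.87 after saline, differences of 7.14 and 1.88. Arc averaged 5.23 and 5.37 after KA and 0.68 and 6.99 after saline, which turned its EGFP- difference to -1.62. Nr4a1 (3.28 and -1.90), Pgrmc1 (6.52 and -1.57) and Prox1 (3.85 and -0.30) likewise differed in sign. By size, 17 genes were 2 or more higher in EGFP+ and 2 or more lower in EGFP- cells, among them Jun (2.34 and -2.34), Btg2 (3.77 and -3.09) and Smarca2 (3.03 and -3.11), and only Poldip3 was the reverse. These were 0.279% and 0.0164% of the 6098 genes, and 3.54% and 0.082% with only cells numbered above 200. The immediate early gene list stood 0.29 above the median gene in EGFP+ cells and 1.78 under it in EGFP- cells. Robo2 and Robo3 differed by 0.55 and 0.37 in EGFP- cells. Robo2 averaged 3.78 in EGFP+ and 2.96 in EGFP- cells after KA and 0 and 2.41 after saline, so its classes lay further apart after saline. With only cells numbered above 200 the Robo2 differences were 2.56 in EGFP+ and -1.45 in EGFP- cells. Robo3 averaged 4.15 in EGFP+ and 1.504 in EGFP- cells after KA and 1.56 and 1.14 after saline, so its classes lay further apart after KA. These contrasts between classes rest on the same 5 saline EGFP+ cells, of which 4 held 0.676% to 5.44% microglia markers, against 15 of 27 saline EGFP- cells under 0.1%; they were not tested.

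**Figure D5:**
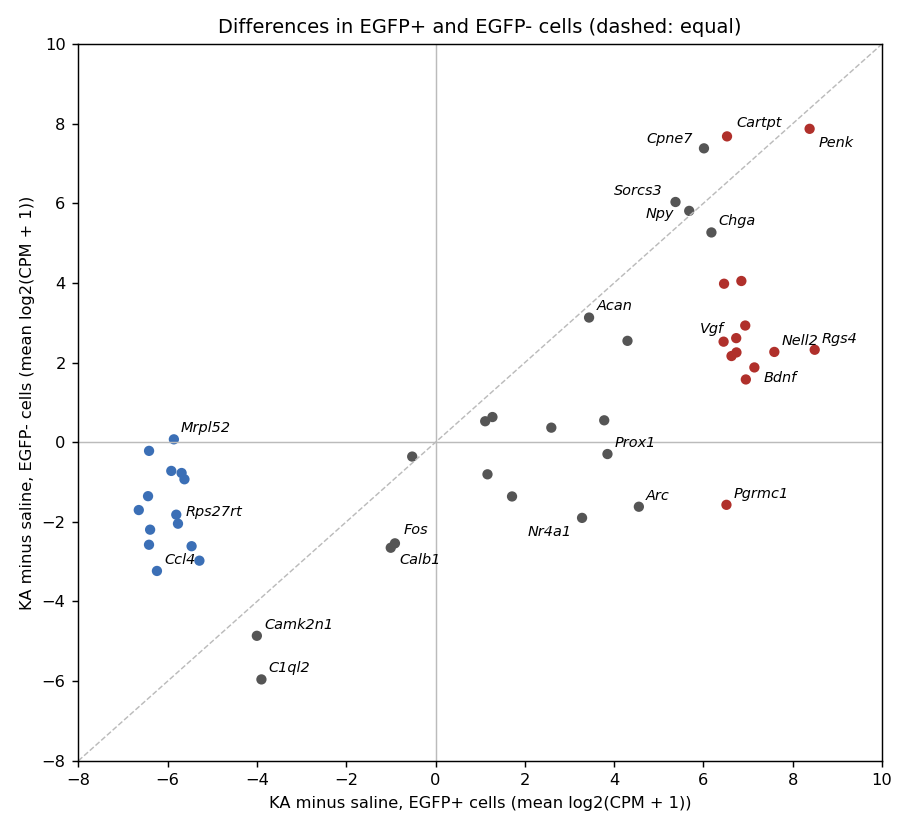
KA minus saline difference in EGFP+ cells (x axis) against that in EGFP- cells (y axis), both in mean log2(CPM + 1), for the measured named genes: red and blue points met the rule for higher and lower genes and grey points were preset. Penk, Cartpt, Npy and Chga lie near the dashed line of equal differences, whereas Rgs4, Bdnf and Arc lie well under it.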

How the data were processed

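Whole-cell cytosol was taken by patch pipette and sequenced with Nextera XT, per the labels' protocols. The genome build GRCm38 and the tools STAR, featureCounts, kallisto and Trimmomatic are named in the submitters' processing notes; versions and roles are not given in the sources used here. The authors deposited whole-number read counts per gene for all cells and for the cells kept after quality control, which agree in all shared values (0 differ), and a normalized signal for the kept cells that equals the deposited counts times 1 factor per cell (0.573 to 41.9 in the EGFP+ cells). How the factors were made is not given in the sources used here.

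CPM was computed from the counts of 22870 genes after 92 spike-in rows were left out, and differences were taken on log2(CPM + 1) with Python 3.11.15, numpy 2.4.6, pandas 2.3.3 and scipy 1.17.1. The script was tested on simulated data. Depth is 1277978 counts or more per cell, so counting error is small beside the spread between cells; reads carry no molecular identifiers. Genes were placed with GENCODE M21; 83 of 235 named genes share exons with another gene. The members and the 35 gene lists were chosen with earlier results of these data known. Genes were named by the rule given with the most positive genes, the 14 most negative by its mirror image, with marker, mitochondrial, predicted and pseudogene names left out, besides a preset set and the extremes of each list. As each cell is 1 sample of an unnamed mouse, no test was made. Alternatives were another scaling, pseudocount (10), filter, cell choice and leaving out each saline cell, and, chosen after seeing the data, centring on the median gene and use of only the cells with 0.5% or more microglia markers.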

Additional observations from a re-analysis of the deposited data

Results flagged for a closer look

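In the 5 saline cells, 21 of 50 values (library measures and gene levels in log2(CPM + 1)) had 1 cell far from the other 4 by Dixon's 95% limit. In 9 of the 21 the other 4 cells were all at 0, where any count passes, so that the usual chance rate of about 1 in 20 does not apply to them. Cell M252 was far above the others for Penk (3.95), Arc (3.38), Gap43 (2.21) and Sorcs3 (0.787), and far below them for Ctsc (0.787), Ccl2 (0) and Cd83 (1.67). Cell M247 was far above for Bdnf (8.29), Nr4a1 (8.49), Dcc (3.79) and Pcdh11x (2.60). Cell M258 was far above for Cartpt (1.74), Pdyn (3.38), Robo1 (3.92), Robo3 (5.27) and Cpne7 (1.36), and far below for Calb1 (0). Cell M222 was far above for Prox1 (8.85) and Arxes1 (6.14), and M230 for Nell2 (1.08) and Crtac1 (0.800).

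Of the 2 KA EGFP+ cells that the authors left out, both held peptide gene reads. Cell M233 had Penk at 9.82, and cell M265 had Penk at 10.07 and Npy at 6.14.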

How the results depend on the processing

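The limits come first from the saline side: 5 cells, of which 4 carry microglial RNA, from mice that no label names. Most KA cells belong to another title series. KA cells were sequenced more deeply, with a median of 6140692 counts against 2697650. For the 53 genes named by the rule or preset, 947 differences under an alternative moved by less than 1 SD between cells and 55 moved further, and of those genes 14 turned sign somewhere, 9 of them from a main value under 2 in size. Those of 2 or more that turned were Rps6ka1 (0.498), Ccl2 (0.666), Cd83 (0.215), C1ql2 (2.09) and Camk2n1 (1.37) when only cells under 0.1% microglia markers were used, which leaves 1 saline cell. There Egr1 (-4.60), Fos (0.56), Atf3 (3.82), Maff (0.23) and Dock10 (2.32), the last 3 outside those 53, turned too. The median gene was 2.88 higher in that comparison, above all of these positive values but that of Atf3. The cause of these sign turns was not tested.

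The count of genes 2 or more higher, 3031, was 888 with a pseudocount of 10, 1929 with a filter at 60% of cells, 1809 with only the 3 KA cells numbered above 200, 5353 with only cells under 0.1% microglia markers, 921 after centring and 1896 with only cells at 0.5% or more. The count lower, 446, was 825 in summed counts, 893 with the authors' normalized signal, 173 with a pseudocount of 10, 1295 with the 3 KA cells numbered above 200, 778 with cells under 1% microglia markers, 1391 after centring and 970 with cells at 0.5% or more. Leaving out each saline cell in turn gave 2738 to 3726 higher and 339 to 743 lower genes, the last without cell M252. Of 32 list medians relative to all genes 23 turned sign under some alternative, 18 of them from a value under 1 in size. Of those of 1 or more, CA3 and CA1 markers (-0.734 with medians over cells), oligodendrocyte markers (0.181 with the 3 KA cells), GABA receptors (-0.107 with cells under 1% microglia markers) and calcium sensors (0.0874 with no filter) turned. That of the mossy cell markers ran from -1.77 to 0.586 without 1 saline cell, positive without M252 and M258 (0.277). For these the cause was not tested. No paired analysis was possible because the replicate numbers follow accession order and pair no cells.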

Other observations

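Of the 7 cells labelled saline EGFP+ and 29 labelled KA EGFP+, 2 of each are absent from the table kept after quality control. Saline cell M221, labelled as passed, held 189424 counts with C1qb at 13.34, Ctss at 13.04 and Calb1 at 8.80, while C1ql2, Prox1, Penk, Cartpt, Npy and Vgf were at 0. Its microglia markers took 5.69% of counts, above every kept EGFP+ cell. Saline cell M220 held 89195 counts on 448 genes, with Vgf at 6.96 from 11 counts and no count of C1qb or Ctss.

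A further 3 genes of the 39 that were lower with either choice of cells are given here. Serbp1, an mRNA-binding protein, differed by -3.44 (-6.08 against cell M252 alone and -2.23 among cells with 0.5% or more microglia markers), with a saline range of 8.27 to 11.71. Calr, the chaperone calreticulin, differed by -2.91 with a saline range of 7.95 to 10.55, and Atp5j2, a subunit of ATP synthase, by -2.29 with a saline SD of 0.57 (n = 5). In EGFP- cells the same 3 genes differed by 0.19, -0.05 and -0.02. These genes were picked after their values were seen, and the difference between the classes was not tested.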
